A study of Mus musculus with 18 samples.

Results

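The binding of 3 mouse bZIP DNA-binding domains (CREB1, ATF1 and JUND) to DNA sequences of 8 bases (8-mers) that hold the tetranucleotide ACGT, but none of 4 longer sequences that contain it, was examined on protein binding microarrays. Of 65530 8-mers in the deposited table, 1010 qualified. They hold ACGT anywhere and hold, on neither strand, TGACGT (the start of the cAMP response element, CRE), GACGTC (the centre of the CRE), TTACGT (the start of the PAR octamer) or CACGTG (the E-box with a CpG). The choice was made by sequence alone, and 1009 of the 1010 could be tested, because no probe carried ccccACGT in that orientation. These 1009 are called ACGT 8-mers here.

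Each protein was a DNA-binding domain with its neighbouring residues, fused to glutathione S-transferase and translated in vitro, and was read out by the fluorescence of an Alexa Fluor dye. Each was applied to arrays whose probes had been made double-stranded with 5-methylcytosine (5mC), with 5-hydroxymethylcytosine (5hmC) or with unmodified cytosine (C). The 9 groups were thus CREB1 on 5mC, 5hmC and C DNA, ATF1 on 5mC, 5hmC and C DNA, and JUND on 5mC, 5hmC and C DNA, with 2 arrays each. Per the labels' protocols the modified base is present only in the strand that was synthesized on the slide, while the printed strand carries cytosine, so that 5mC and 5hmC DNA were hemi-modified. The modified base stood in for cytosine throughout the extended strand, not only at CpG. The labels do not say whether both arrays of a group used one protein preparation, and p-values here cover array-to-array spread, which may be technical. That spread was estimated over all 9 groups together, so an SE given here can be smaller than the spread of the arrays compared.

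bZIP proteins bind DNA as dimers, and the basic region of each partner reads one side of the site in the major groove. CREB1 and ATF1 are closely related activators that bind the CRE, a palindrome built of 2 copies of TGAC around a shared CpG. JUND is a subunit of AP-1, which binds the CRE and the related TPA response element. The PAR octamer belongs to the proline and acidic amino acid-rich bZIP proteins, and GCAA is the unit read by C/EBP proteins. ACGT is the centre shared by the CRE and the PAR octamer: it is its own reverse complement and contains the CpG, so each strand has a cytosine in it.

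The sequences listed here carry the results and are written 5′ to 3′ as they read on the synthesized strand, with ACGT in capitals. The first 2 had the highest levels on C DNA, and the next 4 are palindromes whose outer bases separate them. The last 4 form 2 pairs of reverse complements, which place the modification on opposite strands of the 8 base pairs and are read from separate probes.
Highest on C DNA with CREB1: tACGTagg
Highest on C DNA with ATF1: cgtcACGT
Palindrome with CT before: ctACGTag
Palindrome with AT before: atACGTat
Palindrome with GT before: gtACGTac
Palindrome with 2 copies: ACGTACGT
Highest on 5mC DNA with CREB1: cgcaACGT
Its reverse complement: ACGTtgcg
One base changed at the start: tgcaACGT
Reverse complement of that: ACGTtgca

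An 8-mer's level is the deposited z-score, in which about 0 is the middle of all 8-mers on an array. It has no true zero, so changes are given as differences. An ACGT 8-mer was carried by a median of 17 probes, from 14 at the 5th to 20 at the 95th percentile. Over the ACGT 8-mers, z-scores ranked with the median signal of the probes that hold the 8-mer on the synthesized strand, with a Spearman rho of 0.952 to 0.983 over the 18 arrays, against -0.189 to 0.729 for probes that hold it on the printed strand. The orientation written is therefore that of the modified strand.

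The next 4 probes, of 35 variable bases each, are single examples of the signals that enter these levels, with the whole 8-mer in capitals on the synthesized strand. Each was the middle one by CREB1 signal on the first C array among the probes of its 8-mer that had a single ACGT and no excluded sequence.
Probe with ctACGTag: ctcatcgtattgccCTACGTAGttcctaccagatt
Probe with gtACGTac: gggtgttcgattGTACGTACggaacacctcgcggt
Probe with cgcaACGT: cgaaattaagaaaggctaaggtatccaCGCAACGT
Probe with ACGTtgcg: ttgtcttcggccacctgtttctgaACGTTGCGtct
The probe with ctACGTag gave CREB1 signals of 2.36 and 1.75 times the array's median on 5mC DNA, 1.35 and 1.18 times on 5hmC DNA, and 7.69 and 14.4 times on C DNA. The probe with gtACGTac stayed between 0.792 and 1.38 times the median on the 4 modified arrays, and gave 1.36 and 1.99 times on C DNA. The probe with cgcaACGT was brighter on modified DNA, with 17.7 and 12.6 times the median on 5mC DNA, 16.2 and 12.9 times on 5hmC DNA, and 3.38 and 3.88 times on C DNA. On 5hmC DNA it ran against the level of its 8-mer, which was lower on both 5hmC arrays than on both C arrays. The probe with its reverse complement, ACGTtgcg, was at 0.679 and 0.665 times the median on 5mC DNA, 0.865 and 0.963 times on 5hmC DNA, and 1.56 and 1.21 times on C DNA.

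On unmodified DNA most ACGT 8-mers were bound by CREB1. With a z-score of at least 4 on both arrays as the mark of binding, 568 of 1009 were bound (56.3%), against 3.94% of all 8-mers tested. Their median z-score was 4.85 and 6.74 on the 2 C arrays, with the 5th to 95th percentiles from 0.919 to 18.3 on the first and from 1.37 to 27.5 on the second. ATF1 bound 329 (32.6%), against 2.38% of all 8-mers, with medians of 3.12 and 3.20. The levels of the 2 proteins on C DNA ran together over the 1009 8-mers (Pearson r 0.932, Spearman rho 0.908), which share their probes and overlap in sequence. The full CRE, tgACGTca, had CREB1 z-scores of 193 and 136 on C DNA, and the PAR octamer, ttACGTaa, had 84.3 and 86.9, so the strongest ACGT 8-mers came close to the PAR octamer and stayed well below the CRE.

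The base next to ACGT ordered the levels. Reading outwards from ACGT on each strand, 33 8-mers have T before it on both strands (TACGTA), and their median CREB1 z-score on C DNA was 25.1, the highest of the classes with both neighbours inside the 8-mer. With T on one strand, the median was 13.6 where the other strand had C (80 8-mers), 10.8 where it had G (66 8-mers) and 7.99 where it had A (80 8-mers). Without a T it was 4.26 for C with G, 3.47 for C with A, 3.26 for G with A and 2.41 for A on both strands (48 8-mers). ATF1 gave 10.3 for T on both strands, then 5.73, 5.53 and 4.12 with C, G and A opposite, and 2.73 to 1.87 without a T. Classes overlapped widely, since TACGTA 8-mers ran from 3.06 to 67.8 with CREB1 and A on both strands from 0.66 to 9.74. Class medians over probes without an excluded sequence are not given, and the part of probes with one in this order was not tested.

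The same neighbour marked the extremes of the list. Of the 50 ACGT 8-mers with the highest mean CREB1 z-score on C DNA, 48 had T before or A after ACGT, and 19 had both, whereas 354 of all 1009 (35.1%) had T before or A after. None of the 50 lowest had either. With ATF1, 43 of the 50 highest and 0 of the 50 lowest had one of them.

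Levels also differed with the second base out. With ACGT in the middle, CT before it on the written strand gave a median CREB1 z-score of 15.6 on C DNA (14 8-mers), AT 11.5 and GT 6.34. On the other strand the same pairs gave 15.8, 13.1 and 5.84. With G next to ACGT the outer base ordered the levels too, with 7.97 for CG, 3.60 for AG and 1.61 for GG (11 8-mers each). TT and TG before ACGT do not occur, because the rule excludes TTACGT and TGACGT.

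In the palindromes both sides of ACGT are alike. The z-score of ctACGTag with CREB1 was 11.2 and 6.39 on 5mC DNA, 3.58 and 2.57 on 5hmC DNA, and 40.2 and 67.7 on C DNA. For atACGTat it was 3.48 and 1.97 on 5mC DNA, 4.46 and 2.99 on 5hmC DNA, and 16.0 and 33.1 on C DNA. For gtACGTac it was 0.859 and 1.72 on 5mC DNA, -0.502 and 0.00392 on 5hmC DNA, and 2.62 and 3.51 on C DNA. On C DNA the 3 palindromes did not overlap, in the order CT, AT, GT. ACGTACGT reached 1.78 and 3.39 on 5mC DNA, 3.04 and 3.74 on 5hmC DNA, and 23.9 and 33.9 on C DNA. The other 4 palindromes, with A next to ACGT, lay between 0.955 (gaACGTtc, array 1) and 6.17 (caACGTtg, array 2) on the C arrays.

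The 9 8-mers with TACGTA in the middle, set apart after their values were seen, show the range within one core. Their mean CREB1 z-score on C DNA ran from 3.06 for gtACGTac to 55.2 for ctACGTat. Those with CT before or AG after were at 55.2 (ctACGTat), 53.9 (ctACGTag), 29.3 (atACGTag), 26.6 (ctACGTac) and 25.1 (gtACGTag). The others were at 24.6 (atACGTat), 22.1 (atACGTac), 13.1 (gtACGTat) and 3.06 (gtACGTac). The highest 2 on 5mC DNA were ctACGTag, with 8.79 on 5mC DNA and 3.08 on 5hmC DNA, and ctACGTat, with 8.59 on 5mC DNA and 4.79 on 5hmC DNA.

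With 5mC in the synthesized strand CREB1 binding fell across the list. The median z-score was 1.02 and 1.17 on 5mC DNA, against 4.85 and 6.74 on C DNA. Of 1009 ACGT 8-mers, 804 were lower on 5mC DNA and 0 were higher (limma on the z-scores of all 8-mers, Benjamini-Hochberg adjusted p under 0.05), which is 79.7%, while 8.45% of all 65121 8-mers tested changed, 6.21% being lower and 2.25% higher. The change was negative for 1003 of 1009, with a median of -4.63 against -0.063 over all 8-mers. After quantile normalization 328 were lower and 1 was higher. Shares of all 8-mers are given for the main fit only, so counts in other settings cannot be set against them.

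CREB1 binding fell by a similar amount on 5hmC DNA. The median z-score was 0.855 and 1.14 on 5hmC DNA, and 820 ACGT 8-mers were lower and 0 higher than on C DNA (81.3%), while 7.89% of all 8-mers changed, 6.78% being lower and 1.12% higher. The median change was -4.64, and the change was negative for 1004 of 1009. After quantile normalization 332 were lower and 0 higher, with no share of all 8-mers given. On the log2 scale, over probes free of the excluded sequences, the median signal of an ACGT 8-mer relative to the array median was 0.33 and 0.42 on 5mC DNA, 0.24 and 0.22 on 5hmC DNA, and 1.08 and 1.33 on C DNA.

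Over the 1009 8-mers, which share arrays and probes, levels on 5mC and C DNA had a Pearson r of 0.563 and a Spearman rho of 0.691, and levels on 5hmC and C DNA had 0.559 and 0.647. The largest falls were of 8-mers high on C DNA. With medians of 1.13 on 5mC DNA and 1.05 on 5hmC DNA, the size of a fall largely repeats the level on C DNA. For tACGTagg the CREB1 z-score was 4.19 and 1.60 on 5mC DNA, 2.07 and 1.80 on 5hmC DNA, and 67.2 and 68.3 on C DNA. Its change was -64.9 ± 4.34 (SE; adjusted p = 1.01e-08) with 5mC and -65.9 (adjusted p = 7.03e-09) with 5hmC. On each modified array it was below the list's median on C DNA. For catACGTa, which holds TACGTA further along, the z-score was 2.21 and 4.68 on 5mC DNA, 1.76 and 2.90 on 5hmC DNA, and 41.0 and 48.0 on C DNA, a change of -41.0 (adjusted p = 3.58e-08) and -42.1 (adjusted p = 1.93e-08). Its reverse complement is tACGTatg, so these 2 are orientations of 1 duplex and not separate sites. The z-score of tACGTatg was 4.12 and 3.15 on 5mC DNA, 3.61 and 5.30 on 5hmC DNA, and 46.8 and 56.5 on C DNA. It changed by -48.1 with 5mC (adjusted p = 2.69e-07) and by -47.2 with 5hmC (adjusted p = 3.03e-07). These 3 remained past the threshold in each of 12 recomputations with another setting or without an array.

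Among the palindromes with T next to ACGT, those high on C DNA fell with both modifications. The change of ctACGTag was -45.2 ± 5.65 (SE; adjusted p = 1.27e-05) with 5mC and -50.9 (adjusted p = 2.91e-06) with 5hmC, but a fit on the CREB1 arrays alone gave adjusted p = 0.0991 and 0.0634. That of ACGTACGT was -26.3 (adjusted p = 3.44e-07) and -25.5 (adjusted p = 4.55e-07). For gtACGTac, low on C DNA already, the change was -1.77 with 5mC (adjusted p = 0.172) and -3.31 with 5hmC (adjusted p = 0.00496).

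TGAC occurs as written in 9 ACGT 8-mers and on the other strand in 9. The highest 2 of these with CREB1 on C DNA are reverse complements, with TGAC overlapping ACGT, and had means of 62.4 and 48.9. The others ran from 7.30 (aACGTgac) to 25.0 (gtcACGTa). For cgtcACGT the CREB1 z-score was 2.51 and 3.39 on 5mC DNA, 1.55 and 1.10 on 5hmC DNA, and 62.2 and 62.7 on C DNA. For its reverse complement, ACGTgacg, it was 8.77 and 4.96 on 5mC DNA, 9.77 and 16.6 on 5hmC DNA, and 42.8 and 55.0 on C DNA. Its mean of 13.2 on 5hmC DNA was the highest of the ACGT 8-mers there with CREB1. Only 9 of 18 probes with cgtcACGT and 8 of 19 with ACGTgacg were free of the excluded sequences. On log2 normexp signals over those probes alone, cgtcACGT changed by -2.01 with 5mC (adjusted p = 3.5e-06) and by -3.11 with 5hmC (adjusted p = 4.72e-10) with CREB1. On the same scale ACGTgacg changed by -0.86 with 5mC (adjusted p = 0.0969) and by -0.75 with 5hmC (adjusted p = 0.213), which did not pass.

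The calls with CREB1 also differed by flank. With T next to ACGT on both strands, 32 of 33 8-mers were lower on 5mC DNA and 33 of 33 on 5hmC DNA. With T on one strand only, 79 of 80 with C on the other strand, 63 of 66 with G and 77 of 80 with A were lower on 5mC DNA, and 80, 64 and 78 of these were lower on 5hmC DNA. With A on both strands, 21 of 48 were lower on 5mC DNA and 14 of 48 on 5hmC DNA. On the modified arrays the classes lay closer together, with CREB1 medians of 2.78 on 5mC DNA and 2.31 on 5hmC DNA for TACGTA, and of 0.577 and 0.776 for A on both strands. The classes with more calls were also those with higher levels on C DNA, and the part of that level in the counts was not tested.

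Cytosines outside ACGT on the written strand carried the modification as well. With 0, 1, 2, 3 and 4 of them, 271 of 326, 345 of 417, 149 of 211, 36 of 51 and 3 of 4 8-mers were lower with CREB1 on 5mC DNA. The median z-scores of these classes on C DNA were 5.40, 6.62, 5.21, 4.28 and 2.60, so the classes with 3 and 4 cytosines were also the lowest on C DNA. With a further CpG 134 of 163 8-mers were lower on 5mC DNA, and without one 670 of 846.

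A small set was bound by CREB1 on modified DNA. On 5mC DNA 45 ACGT 8-mers were bound (4.46%, against 1.38% of all 8-mers), and on 5hmC DNA 18 were (1.78%, against 1.13%), with 11 in both sets. Of the 45, 44 were also bound on C DNA and 24 had T before or A after ACGT (53.3%). Among the 568 bound on C DNA, 302 had T before or A after it (53.2%), a similar share. Of the 18, 17 were also bound on C DNA. At a mark of 3 the counts were 92 on 5mC DNA, 56 on 5hmC DNA and 696 on C DNA, and at a mark of 6 they were 14, 3 and 410.

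Some of that set held the C/EBP unit GCAA on the modified strand. Of the 10 ACGT 8-mers with GCAA as written, 6 were among the 45 bound on 5mC DNA and 4 among the 18 bound on 5hmC DNA, and 0 of the 10 with GCAA on the other strand were in either set. Their median CREB1 z-scores were 4.88 on 5mC DNA, 3.13 on 5hmC DNA and 7.58 on C DNA, and those of the 10 with GCAA on the other strand were 1.05, 1.11 and 4.67. The mean on 5mC DNA was 33.5 for cgcaACGT, 15.3 for ACGTgcaa and 9.81 for tgcaACGT, and between 1.57 and 5.15 for the other 7. With GCAA as written 4 were lower on 5mC DNA and 5 on 5hmC DNA, and with GCAA on the other strand 9 and 9 were. The 2 orientations lie on different probes and differed on C DNA already, so the strand of the modification and the surrounding probe sequence cannot be told apart here.

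Of these, cgcaACGT was the highest ACGT 8-mer with CREB1 on 5mC DNA. Its z-score was 43.9 and 23.1 on 5mC DNA, 7.44 and 12.0 on 5hmC DNA, and 20.6 and 20.3 on C DNA. Both 5mC arrays were above both C arrays, but the change of 13.1 ± 5.26 (SE) did not pass (adjusted p = 0.159, and not in 8 of 12 recomputations). Its reverse complement ACGTtgcg had 0.127 and 0.481 on 5mC DNA, 0.288 and -0.333 on 5hmC DNA, and 3.87 and 3.90 on C DNA, a change of -3.58 (adjusted p = 0.00247) with 5mC and -3.91 (adjusted p = 0.00117) with 5hmC. With the first base replaced, tgcaACGT had 14.0 and 5.65 on 5mC DNA, 6.05 and 4.37 on 5hmC DNA, and 3.47 and 5.29 on C DNA, a change of 5.43 with 5mC (adjusted p = 0.0945). Its reverse complement ACGTtgca had 0.942 and 1.15 on 5mC DNA, 1.30 and 1.98 on 5hmC DNA, and 5.72 and 6.72 on C DNA, and fell with 5mC (-5.17, adjusted p = 1.39e-05). In both duplexes the orientation with GCAA on the written strand was the higher one on modified DNA, as it was on C DNA for cgcaACGT but not for tgcaACGT. With A or G as the first base the CREB1 level was instead lower on 5mC DNA by limma. For agcaACGT the mean was 3.77 on 5mC DNA and 12.1 on C DNA (adjusted p = 0.000319). For ggcaACGT it was 1.57 on 5mC DNA and 5.78 on C DNA (adjusted p = 0.000741).

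The number of ACGT 8-mers that differed between 5hmC and 5mC DNA with CREB1 depended on the scale. On 5hmC DNA 2 ACGT 8-mers were lower than on 5mC DNA and 0 higher, while 0.952% of all 8-mers changed, 0.766% being lower and 0.186% higher, and the median change was -0.181. One was cgcaACGT (-23.8 ± 5.26, adjusted p = 0.032), whose SD was 14.7 between the 5mC arrays and 3.21 between the 5hmC arrays. The other was actACGTt, with -0.928 and 0.890 on 5hmC DNA and 3.53 and 4.26 on 5mC DNA (-3.92 ± 0.841, adjusted p = 0.0264). Neither passed in a fit on the CREB1 arrays alone, and without 5hmC array 1, 5hmC array 2 or 5mC array 1 the count was 0, 1 and 0. On log2 signals it was 51 without background correction (50 lower, 1 higher) and 15 with normexp (15 lower). The shares of all 8-mers on these scales are not given, so these 2 counts cannot be set against them.

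ATF1 showed the same direction at lower levels. Its median z-score was 0.753 and 0.772 on 5mC DNA, 0.419 and 0.361 on 5hmC DNA, and 3.12 and 3.20 on C DNA. On 5mC DNA 267 were lower and 0 higher (26.5%, while 3.25% of all 8-mers changed, 2.06% being lower and 1.19% higher), with a median change of -2.35 and 972 of 1009 negative. On 5hmC DNA 279 were lower and 0 higher (27.7%, while 2.18% of all changed, 2.08% being lower and 0.0998% higher), with a median change of -2.72 and 1003 of 1009 negative. The counts rest on having both arrays of each group. Without 5mC array 1 or 2 the first was 14 or 1 and without C array 1 or 2 it was 52 or 53, and without 5hmC array 1 or 2 the second was 20 or 52 and without C array 1 or 2 it was 86 or 85. A fit on the ATF1 arrays alone gave 565 and 617. The shares of all 8-mers outside the main fit are not given.

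The 2 8-mers highest with CREB1 on C DNA were also high with ATF1. For cgtcACGT the ATF1 z-score was 1.45 and 1.76 on 5mC DNA, 1.10 and -0.556 on 5hmC DNA, and 25.9 and 27.5 on C DNA, a change of -25.1 (adjusted p = 0.00449) and -26.4 (adjusted p = 0.00308). For tACGTagg it was 0.346 and 0.704 on 5mC DNA, 0.525 and 0.619 on 5hmC DNA, and 23.9 and 20.4 on C DNA, a change of -21.6 (adjusted p = 0.0103) and -21.5 (adjusted p = 0.0113). The groups did not overlap for either 8-mer, though neither change passed without either modified array of ATF1, and that of tACGTagg did not pass without either C array. On 5mC DNA 21 ACGT 8-mers were bound by ATF1 (2.08%, against 0.855% of all 8-mers), and on 5hmC DNA 0 were (0.327% of all). Of the 21, 19 were also bound by ATF1 on C DNA, 19 were in the CREB1 set on 5mC DNA and 4 had GCAA as written. The level of cgcaACGT with ATF1 was 10.5 and 10.5 on 5mC DNA, 4.26 and 3.30 on 5hmC DNA, and 10.9 and 9.74 on C DNA. Between 5hmC and 5mC DNA 76 of 1009 ACGT 8-mers had an unadjusted p under 0.05 with ATF1 by limma. Of all 65121 8-mers 10633 did, a larger share. After adjustment 0 ACGT 8-mers passed, while 0.725% of all 8-mers changed, 0.591% being lower and 0.134% higher. On log2 signals the count was 140 without background correction (123 lower, 17 higher), 86 with normexp and 106 over probes without an excluded sequence. In a fit on the ATF1 arrays alone it was 19. The shares of all 8-mers in these settings are not given, so the counts cannot be set against them.

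The z-score change was larger with CREB1 than with ATF1. By an interaction term, 73 ACGT 8-mers differed between the proteins in the 5mC change, all with the more negative change in CREB1, while 0.272% of all 8-mers differed, 0.252% with the more negative and 0.02% with the less negative change in CREB1. In the 5hmC change 58 differed, in the same direction, while 0.215% of all did, 0.21% and 0.00461% in the 2 directions. CREB1 also had the higher z-scores on C DNA, with a median over the list of 5.78 against 3.17 for ATF1. On each log2 scale tried and after quantile normalization the counts were 0 and 0, and in a fit on the CREB1 and ATF1 arrays alone they were 0 and 2. The first count was 390 or 99 without CREB1 C array 1 or 2, 20 or 66 without CREB1 5mC array 1 or 2, 9 or 0 without ATF1 5mC array 1 or 2, and 34 or 25 without ATF1 C array 1 or 2. The second was 353 or 94 without CREB1 C array 1 or 2, 13 or 14 without CREB1 5hmC array 1 or 2, 1 or 2 without ATF1 5hmC array 1 or 2, and 31 or 20 without ATF1 C array 1 or 2.

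On modified DNA the 2 orientations of a duplex were less correlated and closer in level than on C DNA. The list holds 500 pairs of reverse complements that could be tested. With CREB1 their z-scores had a Pearson r of 0.241 on 5mC DNA, 0.238 on 5hmC DNA and 0.760 on C DNA over the 500 pairs, which share arrays and overlap in sequence. The median absolute difference between orientations was 0.956 on 5mC DNA, 0.912 on 5hmC DNA and 2.17 on C DNA. With 5mC the difference changed for 154 pairs (30.8%, while 5.08% of all 32225 pairs changed), of which 10 were wider and 144 narrower than on C DNA. With 5hmC it changed for 146 pairs (29.2%, while 4.25% of all did), 3 wider and 143 narrower. On log2 normexp signals the counts were 26 and 21, and after quantile normalization 16 and 25, with no shares of all pairs given. Levels were also lower on modified DNA, with a median CREB1 z-score over the list of 1.13 on 5mC DNA, 1.05 on 5hmC DNA and 5.78 on C DNA. The part of that fall in the smaller differences and the lower correlations was not tested.

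The pair that narrowed most with 5mC was far apart on C DNA. The orientation gcatACGT had 4.71 and 4.54 on 5mC DNA and 35.2 and 36.3 on C DNA, and ACGTatgc had 1.00 and 0.924 on 5mC DNA and 7.03 and 13.3 on C DNA. The difference changed by -21.9 ± 1.13 (SE; adjusted p = 1.22e-08), and by -25.1 with 5hmC (adjusted p = 1.71e-09). The pair cgtcACGT and ACGTgacg changed order with 5hmC: cgtcACGT was the higher on C DNA and the lower on 5hmC DNA, with a change of -25.4 (adjusted p = 2.79e-05). Among the widened pairs the GCAA duplexes moved most with 5mC, cgcaACGT over ACGTtgcg by 16.7 ± 4.29 (adjusted p = 0.0316, lost in 5 of 11 recomputations) and ACGTtgca over tgcaACGT by -10.6 ± 1.81 (adjusted p = 0.00156, lost in 1 of 11). In the second pair tgcaACGT was the lower on C DNA and the higher on 5mC DNA.

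With ATF1 the difference between orientations changed for 21 pairs with 5mC (4.2%, while 2.03% of all did) and 8 pairs with 5hmC (1.6%, while 0.236% of all did). The first count was 2 without either 5mC array, 5 without C array 1 and 4 without C array 2, and the second was 1, 2, 3 and 2 without 5hmC array 1 or 2 or C array 1 or 2. Of the 21, 3 were wider, among them gcaACGTt, which holds GCAA and had 4.72 and 5.86 on 5mC DNA and 3.02 and 2.18 on C DNA, against -0.961 and -0.596 on 5mC DNA and 1.42 and 2.34 on C DNA for aACGTtgc (5.34 ± 1.23 SE, adjusted p = 0.0377). That call was lost without any 1 of the 4 arrays.

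JUND hardly bound these 8-mers on any DNA. The median of the mean z-score was 0.387 on 5mC DNA, 0.316 on 5hmC DNA and 0.478 on C DNA, and 3, 0 and 0 ACGT 8-mers were bound. These are 0.297%, 0% and 0% of the list, against 0.387%, 0.103% and 0.283% of all 8-mers, so the count on 5mC DNA was near the share of all 8-mers. The CRE itself, tgACGTca, had JUND z-scores of 3.22 and 1.66 on 5mC DNA, 4.55 and 2.44 on 5hmC DNA, and 69.1 and 13.9 on C DNA, so JUND bound its known site on C DNA. The arrays of JUND were less alike over the list than those of CREB1, with a Pearson r between replicates of 0.675 on 5mC DNA, 0.296 on 5hmC DNA and 0.567 on C DNA, against 0.943 for CREB1 on C DNA. JUND 5hmC array 2 had the lowest median probe signal of the 18 arrays, 519 against up to 8013.75, and 1.55 times its background.

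The 3 ACGT 8-mers bound by JUND on 5mC DNA are given for their values only. For tgcgACGT the z-score was 4.67 and 7.34 on 5mC DNA, 1.99 and 1.16 on 5hmC DNA, and 1.35 and 1.48 on C DNA. For gcgACGTa it was 5.74 and 6.05 on 5mC DNA and 2.46 and 1.48 on C DNA, and for gACGTgga 4.52 and 5.19 on 5mC DNA and 0.904 and 1.77 on C DNA. Both 5mC arrays lay above both C arrays in each of them, which their choice by level on 5mC DNA favoured in advance. None of the 3 passed the test. The calls were 2 higher and 1 lower on 5mC DNA, while 1.04% of all 8-mers changed, 0.799% being higher and 0.244% lower. Named here after their values were seen, they were ccgtACGT (3.85 and 4.76 on 5mC DNA, 0.114 and -0.350 on C DNA, adjusted p = 0.0298), ACGTccct (adjusted p = 0.0374) and ACGTtagt (lower, adjusted p = 0.022). Without 5mC array 1, 5mC array 2 or C array 1 no ACGT 8-mer passed, and without C array 2 the calls were 0 higher and 2 lower. On the JUND arrays alone 0 passed. With all arrays, 66 of 1009 had an unadjusted p under 0.05, against 10844 of all 65121 8-mers, a larger share. With 5hmC 0 passed by limma, and 0% of all 8-mers did. There 23 of 1009 had an unadjusted p under 0.05, against 6123 of all 65121 8-mers, again a larger share.

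Levels of 8-mers with the longer sequences that contain ACGT are set beside those of the list without a test. With CREB1 the median z-score was 1.13 on 5mC DNA and 5.78 on C DNA for ACGT 8-mers. It was 3.99 and 71.4 for the 80 8-mers with TGACGT but not GACGTC, 3.00 and 22.1 for the 93 with TTACGT, 2.06 and 7.11 for the 48 with CACGTG, and 1.13 and 5.99 for the 48 with GACGTC, always with 5mC DNA given before C DNA. All 80 and all 93 were lower on 5mC DNA, as were 29 of the 48 with CACGTG, 39 of the 48 with GACGTC and 2996 of the 63843 8-mers outside these classes and the list. The CRE octamer had 33.7 and 12.0 on 5mC DNA, 27.5 and 44.9 on 5hmC DNA, and 193 and 136 on C DNA. A probe of 35 bases can hold more than one site: for 516 ACGT 8-mers with at least 3 probes of each kind, probes that also held an excluded sequence were brighter than the others by a median of 1.18 and 1.32 on the log2 scale with CREB1 on C DNA, and by 0.590 and 0.404 on 5mC DNA. On log2 normexp signals, 652 ACGT 8-mers were lower and 1 higher with 5mC over all probes, and 569 were lower and 3 higher with those probes left out. With 5hmC 704 were lower over all probes and 579 with those probes left out, and 0 were higher in either. The shares of all 8-mers on this scale are not given.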

How the data were processed

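Fluorescence was measured on 18 protein binding microarrays of one design, with 3 proteins, 3 kinds of DNA and 2 arrays in each of 9 groups. Groups come from the sample labels. The deposited 8-mer table holds a z-score for each 8-mer and array. How the authors computed this score is not stated in the labels or file headers, and neither is the scanner. The deposited probe tables hold the foreground and background intensity of 40330 probes, of which 4665 held an ACGT 8-mer and 3256 of these no excluded sequence. The median probe intensity per array ran from 519 to 8013.75, and the number of arrays limits the precision.

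The z-scores of 65121 8-mers carried by at least 1 probe were fitted with limma 3.58.1 in R 4.3.3 (lmFit, one mean per group over 18 arrays, eBayes with trend), two-sided, with Benjamini-Hochberg adjustment over all 8-mers at 0.05. Interactions between proteins were contrasts of the same fit, and strand differences were fitted over 32225 pairs. Tables were made with Python 3.11.15, numpy 2.4.6, pandas 2.3.3 and scipy 1.17.1. Alternatives were log2 probe signals (median per 8-mer, without background correction, with normexp and an offset of 50, or normexp over clean probes, those without an excluded sequence), quantile normalization, no variance trend, at least 10 probes, the arrays of the proteins compared alone, the replicate number as a block, and each array left out. On data simulated for CREB1 5mC versus C over 65121 8-mers, 97 of 100 changes of 10 and 100 of 100 changes of 30 were recovered, with 12 false calls. Apart from these changes, each simulated 8-mer had 1 mean and 1 spread in all 9 groups. The simulation therefore does not cover changes smaller than 10, or a spread that differs between groups as in the measured data.

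The 8-mers named are up to 5 with the largest rise and fall per comparison among those that passed with no overlap between arrays, the 5 highest in each group, up to 5 pairs per strand test, the palindromes, and as comparators tgACGTca and ttACGTaa. Also named were ACGT 8-mers with GCAA or TGAC on either strand and those with TACGTA in the middle. The 8-mers called with JUND on 5mC DNA and the strand pairs called wider were named as well. The 8-mers and lists were chosen with earlier results of these data known. Replicate numbers are shared between groups. Deviations of same-numbered arrays from their group means correlated at 0.226, 0.216 and 0.609 for 5hmC versus C (CREB1, ATF1, JUND), at -0.078, -0.051 and 0.143 for 5mC versus C, and at -0.120 and -0.126 for 5hmC versus 5mC (CREB1, ATF1). The labels name no shared batch and there are only 2 numbers per group, so the block was kept as an alternative for all comparisons.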

Additional observations from a re-analysis of the deposited data

Results flagged for a closer look

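The changes with modification that differed between CREB1 and ATF1 by the interaction term stand apart. In the 5mC change 73 ACGT 8-mers differed, with CREB1 minus ATF1 at -43.3 for tACGTagg, -34.4 for cgtcACGT and -26.7 for catACGTa on the z-score scale. In the 5hmC change 58 differed, with -44.3 for tACGTagg, -34.7 for cgtcACGT and -26.4 for catACGTa. CREB1 had the higher z-scores on C DNA for each of the 3, and both counts were 0 on the log2 scales and after quantile normalization.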

How the results depend on the processing

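The counts of ACGT 8-mers changed with CREB1 moved to 329 (5mC; 328 lower, 1 higher) and 332 (5hmC) under quantile normalization, and ran from 611 to 787 and from 610 to 814 when 1 array was left out. For CREB1 5hmC versus 5mC the count was 51 without background correction, 15 with normexp, 15 over clean probes, 8 without the variance trend and 0 on the CREB1 arrays alone, and 0 to 2 with 1 array left out. For ATF1, 5mC gave 537 (no background correction), 443 (normexp) and 565 (own arrays), and 1 to 53 with 1 array left out, and 5hmC gave 593, 489 and 617, and 20 to 86. ATF1 5hmC versus 5mC gave 140, 86, 106 (clean probes), 3 (no trend), 19 (own arrays) and 15 (quantile), and 0 to 0 with 1 array left out. JUND 5mC gave 7, 41, 52 (clean probes), 0 (own arrays) and 11 (quantile), and 0 to 2 with 1 array left out, and JUND 5hmC gave 0 to 6, with 6 without 5hmC array 1.

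CREB1 minus ATF1 gave 0 on each log2 scale, on own arrays and under quantile normalization for 5mC, and 128 without the trend. For 5hmC it gave 0 on each log2 scale and under quantile normalization, 2 on own arrays and 98 without the trend. With 1 array left out the 5mC count ran from 0 to 390 and the 5hmC count from 1 to 353.

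The strand counts moved to 26 (normexp), 92 (own arrays) and 16 (quantile) for CREB1 5mC, and to 79 (no background correction), 21 and 25 for CREB1 5hmC. For ATF1 5mC they moved to 90, 42 and 76 (own arrays), and for ATF1 5hmC to 14, 3, 45 (own arrays), 13 (quantile) and 5 (replicate block). With 1 array left out they ran from 107 to 165, 102 to 158, 2 to 5 and 1 to 3. With the replicate number as a block the counts were 793 and 816 for CREB1, 245 and 268 for ATF1, 65 and 54 for the interactions and 152, 146, 18 and 5 for the strand tests, so only the last moved by over 1.5 times. A crossed pairing, chosen after seeing the data, gave 2 for CREB1 and 0 for ATF1 5hmC versus 5mC. Of 266 recomputations of 22 named changes, 214 kept the call, 52 lost it and 0 changed sign. The causes were not tested.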
